A study of Mus musculus with 4 samples.

Results

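Endothelial, phagocyte, T, mural and epithelial cells of subcutaneous fat were compared between mice without Cth (Cth-/-) and mice with Cth (Cth+/+), all female and all on the cystine-free diet for 4 days (the sample labels write cysteine-free). Members were barcodes with at least 500 UMIs (unique molecular identifiers, each 1 captured RNA molecule), 300 genes and at most 10% mitochondrial UMIs that passed a UMI gate. The gates were at least 3 UMIs of Cdh5, Pecam1 and Cldn5 together (endothelial), 4 of Csf1r, Cd68 and Lyz2 (phagocyte), 2 of Cd3d, Cd3e and Cd3g (T), 4 of Rgs5 and Notch3 (mural) and 5 of Krt8 and Krt18 (epithelial). They took 2162 of 4130 kept barcodes of the Cth-/- library and 2695 of 6383 of the Cth+/+ library, 4857 of 10513 in all, out of 22750 kept in the series. The same gates in the control-diet libraries of both genotypes, also at 4 days, held 4752 barcodes and are given beside the main results. Progenitors, gated by Dcn at 0.2% of UMIs or more, were not described here except where their RNA touches a result.

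Each group was 1 droplet-based 3' library of stromal vascular cells, from depots that were pooled after the lymph nodes were taken out; the labels do not say how many animals were pooled. Genotype and library therefore cannot be told apart, no difference was tested, and every interval is a 95% interval of counting error. Cth itself gave 8 and 9 UMIs in the kept barcodes of the Cth+/+ libraries (control diet, then without cystine). It gave 0 in both Cth-/- libraries, where 3 UMIs are the limit that a count of 0 allows. The deposited totals were 15948807 UMIs in the Cth-/- cystine-free library, the shallowest, and 24395501 to 30944977 in the others. The median kept barcode held 2684.5 UMIs in the Cth-/- and 3782 in the Cth+/+ library without cystine. These libraries shared 44 barcode sequences, 39 of them kept in both, within the 40 to 69 shared by other pairs of libraries.

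Cth encodes cystathionine gamma-lyase, which releases cysteine in the last step of transsulfuration, so an animal that lacks it depends on dietary cystine for cysteine, the precursor of glutathione, coenzyme A and taurine. Cells short of amino acids are known to raise targets of the transcription factor Atf4, and cells under oxidative stress targets of Nrf2. In fat, capillary endothelium hands fatty acids to adipocytes, macrophages clear debris and lipid, T cells patrol the depot, pericytes wrap the small vessels, and in females the subcutaneous pad also holds mammary ducts, whose luminal and basal epithelial cells respond to hormones.

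Of all kept barcodes, endothelial ones were 25.1% in the Cth-/- library and 19.9% in the Cth+/+ library on the cystine-free diet (5.16 points, 3.51 to 6.83). Phagocytes were 19.2% and 16.5% (2.71 points, 1.20 to 4.24), T cells 5.71% and 3.01% (2.71 points, 1.88 to 3.56) and epithelial barcodes 2.95% and 2.16% (0.79 points, 0.16 to 1.45). The Rgs5 and Notch3 gate was the only one of the 5 with a lower share, 2.91% against 8.27% (-5.37 points, -6.22 to -4.50). On the control diet the genotypes differed in the other direction in the endothelial gate (-10.80 points, -12.04 to -9.55) and the T gate (-2.21 points, -2.83 to -1.59). There the phagocyte difference was 6.13 points (4.78 to 7.48), that of the Rgs5 and Notch3 gate -3.98 points (-4.73 to -3.23) and the epithelial one 0.46 points (-0.18 to 1.11). Shares add up, so they moved beside a progenitor gate of 38.6% against 48.5%, and fewer progenitors recovered cannot be told apart from more cells of the other kinds.

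Depth differed as well: the median barcode of the endothelial gate held 2434 UMIs in the Cth-/- library and 4034 in the Cth+/+ library, and of the phagocyte gate 2914 and 3359. Every barcode was then thinned to 1000 UMIs, which left out 347 shallower barcodes of the Cth-/- and 314 of the Cth+/+ library. The shares became 17.8% against 13.6% endothelial, 15.3% against 11.7% phagocyte, 3.67% against 1.66% T, 0.608% against 3.06% mural and 2.06% against 0.840% epithelial. All 5 differences kept their direction. With barcodes that passed only 1 gate, the mural difference was -0.88 points in place of -5.37, and the endothelial one 9.46 points in place of 5.16.

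**Figure D1:**
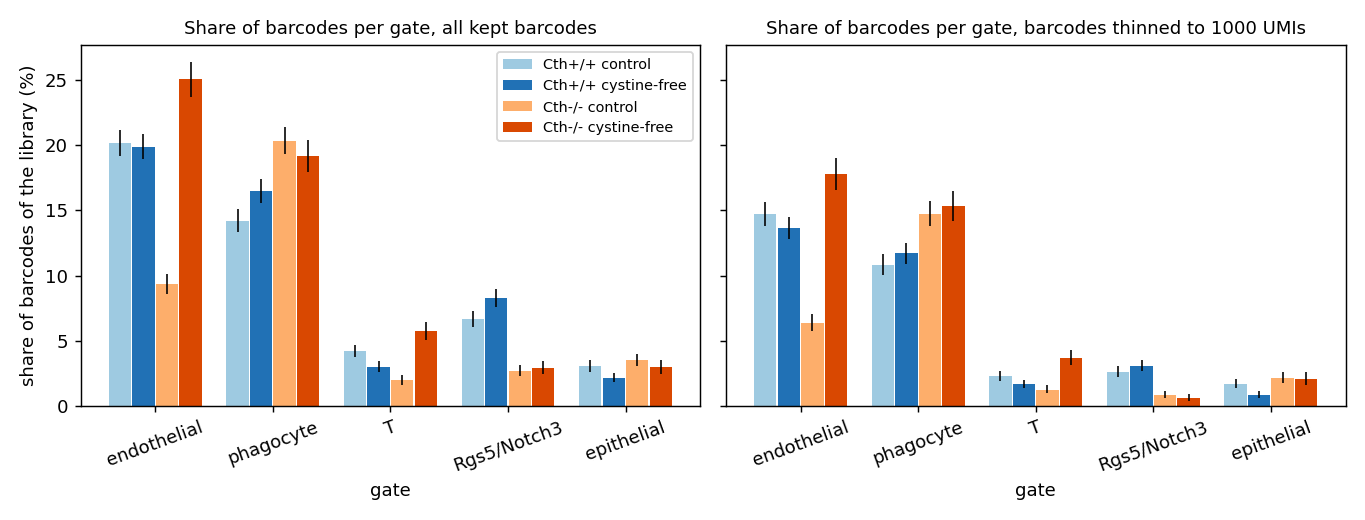
Share of kept barcodes in each gate (y axis, percent) for the 4 libraries (x axis groups the gates), for all kept barcodes and for barcodes thinned to 1000 UMIs; bars are 1 library each and lines are 95% Clopper-Pearson intervals of counting error. In the T gate the Cth-/- cystine-free library stands at 5.71%, the Cth+/+ one at 3.01%, and in the Rgs5 and Notch3 (mural) gate they stand at 2.91% and 8.27%.

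Markers that the gates did not use were checked in each gate. All 8 markers of the own type were detected in every gate and library, and all 8 stood at 20 CPM (UMIs per 1000000 UMIs of the gate) or more, except 7 of 8 in the mural gate of both Cth-/- libraries. Summed, the endothelial markers (among them Kdr, Tie1 and Egfl7) were 9595 against 7576 CPM in the endothelial gate (Cth-/- against Cth+/+), the phagocyte markers 12549.6 against 13912 CPM in the phagocyte gate, and the T markers 2468 against 2445 CPM in the T gate. Epithelial markers were 12064 against 5650.1 CPM in the epithelial gate.

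The mural gate went against its name. Of its barcodes, 101 of 120 in the Cth-/- library (84.2%) and 439 of 528 in the Cth+/+ library (83.1%) also passed the endothelial gate, and its endothelial markers summed to 5518 against 6246 CPM, above the 941 against 1229 CPM of the mural markers (Pdgfrb, Kcnj8, Abcc9 and others). Only 9 and 70 barcodes passed no other gate. It is therefore called the Rgs5 and Notch3 gate below, and is described last.

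RNA of cells outside a gate differed between the libraries in every gate, and its part in the ratios below was not tested. Adipocytes have no gate and float out of the stromal fraction, yet their 9 markers (Adipoq, Plin1, Cfd, Retn and others) summed to 2481 against 257 CPM in the endothelial gate, with all 9 detected. With 8 of 9 detected in the Cth-/- library (Lep at 0), they summed to 542 against 39.1 CPM in the phagocyte, 462 against 24.3 CPM in the T, 2136 against 247 CPM in the Rgs5 and Notch3 and 177 against 27.2 CPM in the epithelial gate. The 3 red cell markers were lower in every gate, 416 against 5596 CPM in the endothelial, 268 against 3669 CPM in the phagocyte and 41.2 against 3917 CPM in the T gate. The 8 progenitor markers, all detected in every gate, were lower in the Cth-/- library throughout, 1212 against 2683 CPM in the endothelial, 1183 against 2706 CPM in the phagocyte, 1651 against 3697 CPM in the T, 827 against 2346 CPM in the Rgs5 and Notch3 and 465 against 1789 CPM in the epithelial gate. Epithelial markers were higher, 246 against 71.4 CPM in the endothelial, 406 against 125 CPM in the phagocyte and 338 against 47.0 CPM in the T gate. Apart from members of the gene lists, a gene was therefore named from a gate only where its level there reached at least 1 part in 5 of its level in the highest of the 6 gates.

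A gene counted as measured if either library reached both 20 CPM and 30 UMIs, and as higher or lower at 1.5-fold, a size and not a test. Where 4 levels follow each other, they are those of Cth+/+ mice on the control diet, Cth+/+ mice without cystine, Cth-/- mice on the control diet and Cth-/- mice without cystine, and a log2 ratio sets the last over the second. A pair of levels gives Cth-/- first, then Cth+/+, both without cystine. In the endothelial gate 723 of 6314 measured genes were higher in the Cth-/- library (11.5%) and 729 lower (11.5%). The phagocyte gate had 514 of 5542 higher (9.27%) and 341 lower (6.15%), the T gate 292 of 2837 higher (10.3%) and 291 lower (10.3%), the Rgs5 and Notch3 gate 632 of 5317 higher (11.9%) and 978 lower (18.4%), and the epithelial gate 763 of 5807 higher (13.1%) and 572 lower (9.85%). Between the genotypes on the control diet, 4.77% and 2.55% of measured genes were higher and lower in the endothelial gate and 1.67% and 1.25% in the phagocyte gate. These shares were 12.9% and 13% in the T gate, 6.95% and 12.2% in the Rgs5 and Notch3 gate and 4.62% and 2.20% in the epithelial gate. Over genes with 100 CPM or more, the log2 ratios had an SD of 0.52 without cystine and 0.25 on the control diet in the endothelial gate, 0.41 and 0.16 in the phagocyte gate, and 0.44 and 0.22 in the epithelial gate. In the T gate the SD was 0.33 without cystine and 0.42 on the control diet, the wider of the pair.

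The split of these counts moved with the scaling. Of genes at least 1.5-fold apart, 57.2% were higher in the epithelial gate, but 30.8% when mitochondrial and ribosomal protein genes were left out of the total and 40.9% when ratios were centred on their median. In that gate ribosomal protein genes took 27.3% of the UMIs of the Cth-/- and 35.7% of the Cth+/+ library, and leaving them out lowered all other log2 ratios, a shift of -0.20; in the other 4 gates the shift lay between -0.07 and 0.04. In the phagocyte gate the same settings gave 60.1%, 47.5% and 48.3%, and in the Rgs5 and Notch3 gate 39.3%, 32.7% and 51.7%. Below, a list is given by its counts of higher and lower genes and by its median log2 ratio, to be read against the median over all measured genes of the gate, which was -0.01 (endothelial), 0.06 (phagocyte), -0.01 (T), -0.11 (Rgs5 and Notch3) and 0.11 (epithelial).

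Of 2314 genes measured in all 5 gates, 16 were at least 1.5-fold higher in the Cth-/- library in every gate and 52 lower in every gate. Between the genotypes on the control diet these counts were 0 and 1 over the same genes. Those genes were chosen by their level in the cystine-free libraries, so genes measured only on the control diet could not be counted. Most of the 16 were genes of adipocytes or epithelial cells, whose RNA was higher in every gate. Cfd, the adipocyte protease adipsin, had log2 ratios of 4.41, 5.54, 6.85, 4.30 and 4.48 in the endothelial, phagocyte, T, Rgs5 and Notch3, and epithelial gates. In 9 of the 16 the epithelial gate had the highest level, among them the keratins Krt8, Krt18 and Krt19, the surface protein Ly6d, the prolactin receptor Prlr and the secreted Wfdc2. Krt8 and Krt18 set the epithelial gate, so their ratio there is no result. In 5 it was the phagocyte gate: Retnla and Ccl6, secreted by macrophages, the chaperones Hspa1a and Hspa1b, and Trim25, a ubiquitin ligase of antiviral sensing. Scd1, the stearoyl-CoA desaturase that adipocytes also use, had log2 ratios of 1.18, 2.93, 3.48, 1.07 and 1.24 in the same order of gates.

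Of the 52 genes lower in every gate, 33 had their highest level in the progenitor gate, and 4 were haemoglobins. Among the former were collagens and their partners: Col3a1, the fibrillar collagen III chain, had log2 ratios of -3.73, -3.84, -3.60, -3.59 and -5.61 in the order above, and Lum, a collagen-binding proteoglycan, -2.84, -2.84, -2.48, -3.14 and -3.18. The haemoglobin gene Hbb-bs ran from -6.29 in the T gate to -2.43 in the Rgs5 and Notch3 gate. Another kind was tied to cell division. Stmn1, which destabilises microtubules, had -0.97, -1.81, -1.14, -1.43 and -2.02. It stood at 59.8, 176, 62.0 and 89.0 CPM in the endothelial gate and at 68.9, 268, 163 and 121 CPM in the T gate. In both, and in the Rgs5 and Notch3 gate, the Cth-/- cystine-free library was above the Cth+/+ control library. In the phagocyte and epithelial gates the Cth-/- cystine-free library was the lowest (50.3 and 22.3 CPM). Dut, Cks1b, Tubb5 and Hmgb2, which serve nucleotide supply, cyclin-dependent kinases, the spindle and chromatin, were also at least 1.5-fold lower in every gate. Col4a1 and Col4a2, the basement membrane collagens, were lower in every gate too, with log2 ratios from -3.61 to -1.22 for Col4a1.

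**Figure D2:**
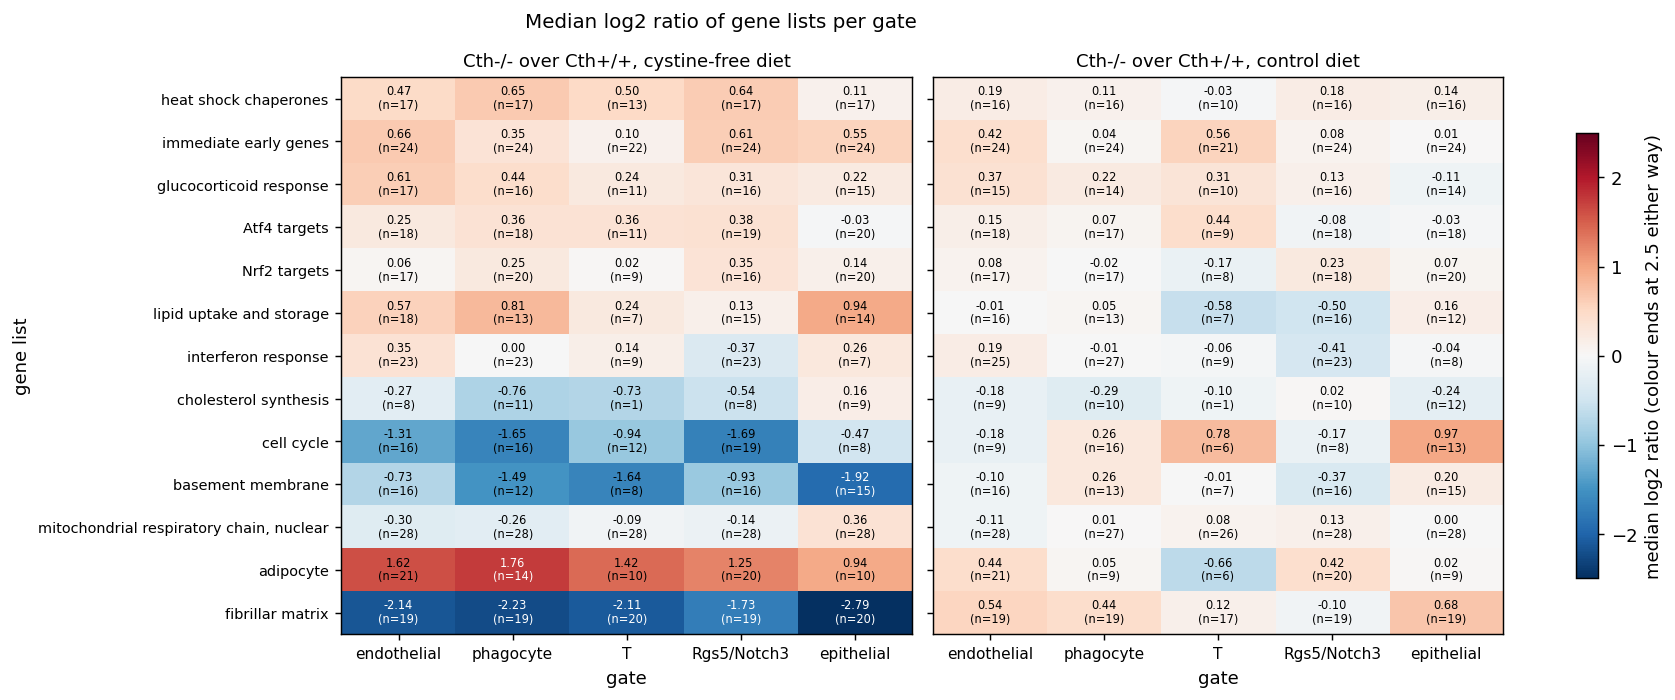
Median log2 ratio of Cth-/- to Cth+/+ (colour and number) for 13 gene lists (rows) in the 5 gates (columns), with a panel for each diet; 1 library per group and no test. The cell cycle list is negative in all 5 gates on the cystine-free diet, from -1.69 to -0.47, and the heat shock list lies between 0.11 and 0.65.

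Hspa1a and Hspa1b, the inducible Hsp70 chaperones that refold damaged proteins, were higher in the Cth-/- library in all 5 gates. Hspa1a stood at 146, 233, 247 and 904 CPM in the endothelial gate (log2 ratio 1.95, interval 1.87 to 2.05). In the phagocyte gate it stood at 232, 325, 297 and 1157 CPM (log2 ratio 1.83, interval 1.74 to 1.93). The Cth-/- cystine-free library was the highest of the 4 in both gates. It was also higher in T cells (192 against 80.3 CPM, log2 ratio 1.25), epithelial cells (382 against 170.3 CPM, 1.16) and the Rgs5 and Notch3 gate (748 against 266 CPM, 1.49). Between the genotypes on the control diet the T gate gave -1.21, the opposite direction. Hspa1b, a near-identical copy whose reads the counting could have split or dropped, gave 2.06, 2.08, 1.16, 1.57 and 1.20 in the endothelial, phagocyte, T, Rgs5 and Notch3, and epithelial gates.

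Other chaperones were higher in fewer gates. In phagocytes 9 of 17 measured genes were 1.5-fold higher or more and 0 lower (median log2 ratio 0.65; control diet 0 higher and 0 lower of 16, median 0.11), with Dnajb1, the J-domain partner of Hsp70, at 367 against 129.7 CPM. Hsph1, a nucleotide exchange factor of Hsp70, stood at 70.9 against 22.0 CPM. In endothelial cells 8 of 17 measured genes were 1.5-fold higher or more and 1 lower (median log2 ratio 0.47; control diet 2 higher and 0 lower of 16, median 0.19). The lower one was the small heat shock protein Cryab (10.98 against 41.46 CPM), and Hsp90aa1, the inducible Hsp90, was higher (1028 against 394 CPM). T cells had 4 higher and 0 lower of 13 (median 0.50; control diet 1 higher and 2 lower of 10, median -0.03), and epithelial cells 3 higher and 1 lower of 17 (median 0.11), a median that became -0.09 without mitochondrial and ribosomal protein genes in the total. Immediate early genes such as Fos and Jun, which tissue digestion is known to induce, were higher beside these in endothelial cells and phagocytes. In T and epithelial cells the medians of the lists differed. They had 15 higher and 0 lower of 24 (median 0.66) in endothelial cells, against 8 and 0 of 24 (median 0.42) on the control diet. In phagocytes they had 7 higher and 0 lower of 24 (median 0.35), against 0 and 0 of 24 (median 0.04). In T cells they had 4 higher and 1 lower of 22 (median 0.10), fewer than the 10 and 0 of 21 (median 0.56) on the control diet. Epithelial cells had 10 higher and 3 lower of 24 (median 0.55), against 1 and 0 of 24 (median 0.01). Their part in the chaperone levels was not tested.

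The 250 bases before the start of Hspa1a and Hspa1b are printed here because these genes were higher in every gate and are known targets of the heat shock factor. They are RefSeq sequences of build GRCm38.p6, Hspa1a at chr17:34972157-34972406 and Hspa1b at chr17:34959239-34959488, both on the minus strand, written 5′ to 3′ on the gene's strand.
Hspa1a: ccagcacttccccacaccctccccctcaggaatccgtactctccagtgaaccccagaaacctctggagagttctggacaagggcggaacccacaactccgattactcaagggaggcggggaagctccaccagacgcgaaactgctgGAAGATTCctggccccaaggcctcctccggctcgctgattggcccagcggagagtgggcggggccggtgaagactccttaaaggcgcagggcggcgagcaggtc
Hspa1b: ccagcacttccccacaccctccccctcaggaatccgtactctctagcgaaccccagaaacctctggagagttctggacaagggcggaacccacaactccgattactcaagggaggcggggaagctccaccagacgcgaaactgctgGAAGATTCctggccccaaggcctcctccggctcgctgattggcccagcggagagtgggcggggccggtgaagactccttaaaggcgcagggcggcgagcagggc
The 2 windows were the same at 247 of 250 bases. The 13-base form GAANNTTCNNGAA and its reverse complement TTCNNGAANNTTC were searched first. In windows of 300 bases, which add 50 bases after the start, both windows of Hsph1 held 1 match and those of Hspa1a, Hspa1b and Dnajb1 none; 198 of 32851 windows held one (0.603%). In the 250 bases before the start none of the 4 genes held one, and 153 of 32851 windows did (0.466%). Shorter 8-base forms were searched after that result. GAANNTTC, marked by capitals, occurred 1 time in each of the Hspa1a and Hspa1b windows, as in 2199 of 32851 windows (6.69%), and TTCNNGAA in neither (2354 windows, 7.17%). Of the other chaperones, both windows of Hsph1 held TTCNNGAA 1 time and GAANNTTC 0 times, and those of Dnajb1 held neither. Both forms read the same on either strand. A match is a run of letters, and neither it nor its absence says whether the factor binds.

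In endothelial cells of the Cth-/- library, genes of lipid uptake and storage and Cdkn1a, an inhibitor of cell division, were higher, and genes of vessel sprouting, basement membrane and cell division lower. Pdk4, the kinase that shuts pyruvate out of the citric acid cycle, stood at 13.5, 6.01, 16.7 and 50.3 CPM (log2 ratio 2.87, interval 2.55 to 3.61). Angptl4, an inhibitor of lipoprotein lipase, stood at 217, 155, 245 and 726 CPM (log2 ratio 2.22, interval 2.12 to 2.33). In both the Cth-/- cystine-free library was at least 2-fold above the other libraries. Both had their highest level in the endothelial gate but were also higher in every other gate of the Cth-/- library. Angptl4 was 231 against 82.7 CPM in the progenitor and 78.8 against 16.4 CPM in the phagocyte gate. Pdk4 was 23.5 against 2.31 CPM and 11.6 against 0.711 CPM there. The part of free RNA in these levels was not tested. Cdkn1a, the cyclin-dependent kinase inhibitor p21, stood at 713, 544, 1294 and 2091 CPM (log2 ratio 1.94, interval 1.88 to 2.00), with the Cth-/- control library the next highest. Pbld1, a phenazine biosynthesis-like protein, was 70.1 against 16.3 CPM. Adig, an adipocyte protein, was 85.1 against 12.2 CPM.

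Because adipocyte RNA was also higher in this gate, the genes were recomputed without barcodes that held a UMI of Adipoq, Plin1, Cidec or Car3, a step added after the data were seen. This kept 530 of 1035 endothelial barcodes of the Cth-/- and 955 of 1270 of the Cth+/+ library. The log2 ratio of Angptl4 was then 2.24 and that of Adig 1.18, down from 2.71. Adig is an adipocyte gene and stayed higher, and how much adipocyte RNA remained after the step was not tested. Of the list of lipid uptake and storage, 9 of 18 measured genes were 1.5-fold higher or more and 0 lower (median log2 ratio 0.57; control diet 0 higher and 0 lower of 16, median -0.01). Cd36, the fatty acid translocase of capillaries, was 6000.5 against 3361 CPM. Lpl, lipoprotein lipase, was 702 against 321 CPM. Plin2, the coat of lipid droplets, was 377 against 122 CPM. Slc27a1, a fatty acid transporter, was 25.3 against 5.70 CPM. Gpihbp1, which anchors the lipase to the capillary wall, was 2321 against 2477 CPM, within 1.5-fold. Without the adipocyte-marked barcodes the list had 8 higher and 0 lower of 17.

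Of the glucocorticoid response list, 9 of 17 measured genes were 1.5-fold higher or more and 0 lower (median log2 ratio 0.61; control diet 5 higher and 0 lower of 15, median 0.37) in the endothelial gate. Mt1 and Mt2, the metallothioneins that bind zinc and copper, stood at 3254 against 1388 CPM and 1408 against 556 CPM. Fkbp5, a chaperone of the receptor, stood at 23.5 against 12.3 CPM. Sgk1, a kinase, stood at 859 against 505 CPM. Tsc22d3 (71.7 against 62.3 CPM) and Per1 (47.0 against 39.9 CPM), other hormone targets, stayed within 1.5-fold. Pdk4, Angptl4 and Cdkn1a belong to this list as well as to others. Of 13 measured p53 targets, 5 were higher and 2 lower (median 0.45; control diet 3 higher and 0 lower of 12, median 0.34). Tnfrsf10b, a death receptor, was 112 against 42.4 CPM, while Bax, which opens mitochondria, was 104 against 193 CPM. Phlda3, an Akt inhibitor, was 21.0 against 43.6 CPM.

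Lower in endothelial cells were genes of growing vessels. Apln, the apelin peptide of tip cells, had 101, 428, 0 and 9 UMIs (24.3, 66.0, 0 and 2.74 CPM, log2 ratio -4.16, interval -5.73 to -3.65). It was low in both Cth-/- libraries, and on the control diet the log2 ratio was -4.66. Ccnd1, cyclin D1, stood at 146, 282, 62.6 and 33.8 CPM (log2 ratio -3.02, interval -3.35 to -2.78), with no overlap between the genotypes. Col15a1, a basement membrane collagen, stood at 205, 218, 167 and 50.01 CPM (log2 ratio -2.10, interval -2.37 to -1.89). Esm1, a tip cell proteoglycan, stood at 28.8, 51.3, 25.4 and 11.9 CPM (log2 ratio -2.02, interval -2.63 to -1.63). For both the Cth-/- cystine-free library alone was low.

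As lists, 10 of 19 tip cell genes were lower and 0 higher (median -0.64; control diet 2 of 18 lower, median -0.02), among them Aplnr, the apelin receptor (45.7 against 168 CPM), and Angpt2, which loosens vessels (15.6 against 43.9 CPM). The receptors Kdr (997 against 1011 CPM), Flt1 (1044 against 814 CPM) and Tek (181 against 147 CPM) stayed within 1.5-fold. Basement membrane genes had 0 higher and 11 lower of 16 (median -0.73; control diet 2 higher and 0 lower of 16, median -0.10), with Col4a1 at 519 against 1209 CPM and Nid2, nidogen, at 7.32 against 33.0 CPM, while the laminin chains Lama5 (43.6 against 47.9 CPM) and Lamb2 (125 against 129.9 CPM) stayed close to equal. In the same gate progenitor markers were lower in the Cth-/- library, and progenitors also express basement membrane genes; their part was not tested.

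Of cell cycle genes in endothelial cells, 1 of 16 was higher and 15 lower (median -1.31; control diet 1 higher and 2 lower of 9, median -0.18), with Mki67, the proliferation antigen, at 2.74 against 24.4 CPM. Summed, the list stood at 1733, 3037, 1492 and 1593 CPM, the Cth+/+ cystine-free library above the other libraries. Top2a, the DNA topoisomerase of dividing cells, stood at 14.4, 56.1, 6.82 and 9.76 CPM. In the Cth-/- library 1 barcode held 78.1% of the Top2a UMIs, and 7 barcodes held any, against 90 in the Cth+/+ library. The member that was higher was Pcna (141 against 82.6 CPM), the clamp of DNA replication and repair. Ndufa4l2 and Cox4i2, complex IV subunits typical of pericytes, had log2 ratios of -2.33 and -2.22. In barcodes that passed the endothelial gate alone these were 0.70 and -0.16, and the pericyte list went from 0 higher and 15 lower of 17 (median -1.51) to 1 higher and 3 lower of 6. The barcodes left out included those shared with the Rgs5 and Notch3 gate, 439 in the Cth+/+ and 101 in the Cth-/- library. Mgp, a matrix protein, was 48.5 against 215 CPM; on the control diet its log2 ratio was 1.24.

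**Figure D3:**
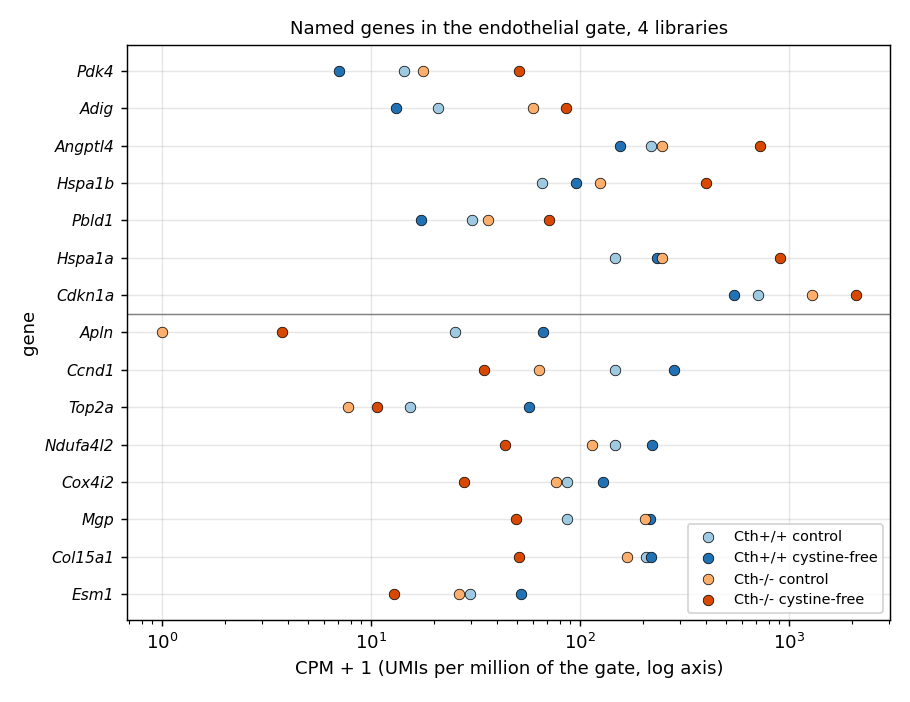
Level of 15 genes named in the endothelial gate (rows), as CPM + 1 on a log scale (x axis), in the 4 libraries (points, 1 library each). Pdk4, Angptl4 and Hspa1a are highest in the Cth-/- cystine-free library, where Angptl4 stands at 726 CPM, and Ccnd1 is lowest there, at 33.8 CPM.

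Genes that mark kinds of vessels were read against the 11.5% of all measured genes that were higher and the 11.5% that were lower. Of 17 capillary genes, 5 were higher and 0 lower (median 0.33; control diet 0 and 0 of 17, median -0.09), led by Car4, a carbonic anhydrase of capillaries (643 against 302 CPM). Of 12 arterial genes 3 were lower and 0 higher. Of 14 venous and adhesion genes 3 were higher and 1 lower, with Selp, P-selectin, at 139 against 65.2 CPM. Interferon response genes had 8 higher and 1 lower of 23 (median 0.35; control diet 3 higher and 0 lower of 25, median 0.19), but 3 higher and 5 lower of 24 without the adipocyte-marked barcodes, so this count moved with those barcodes.

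Phagocytes of the Cth-/- library had higher genes of resident and lipid-handling macrophages and lower genes of monocytes, cell division and cholesterol synthesis. Fcna, a lectin that opens the complement cascade, stood at 344, 169, 296 and 622 CPM (log2 ratio 1.88, interval 1.76 to 2.01). Gdf15, a stress hormone that lowers food intake, stood at 58.3, 70.4, 64.6 and 249 CPM (log2 ratio 1.81, interval 1.63 to 2.03). Cd55, which protects cells from complement, stood at 36.2, 28.0, 42.5 and 101 CPM (log2 ratio 1.81, interval 1.53 to 2.17). In all 3 the Cth-/- cystine-free library was above the other libraries, and for Gdf15 the others did not exceed 70.4 CPM.

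Cxcl13, a chemokine that draws B cells, stood at 7.25, 8.30, 7.36 and 215 CPM in the phagocyte gate (log2 ratio 4.54, interval 4.20 to 5.23), the largest log2 ratio named there. Its UMIs lay in 118 of 792 barcodes of the Cth-/- library, the highest of them with 8.91%, and in 18 of 1051 of the Cth+/+ library. The highest level of Cxcl13 in the Cth-/- library was in the progenitor gate, 668 CPM, with 23.2 in Cth+/+. Barcodes of the endothelial gate alone had a Cxcl13 UMI in 3.06% in the Cth-/- library (median depth 2207.5 UMIs). In the Cth+/+ library (median depth 2958 UMIs) 0 of 759 such barcodes had one, which allows a share of up to 0.395%. The part of progenitor RNA in the phagocyte level was not tested.

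Of the resident macrophage list, 10 of 22 measured genes were 1.5-fold higher or more and 0 lower (median log2 ratio 0.49; control diet 0 higher and 2 lower of 22, median -0.17). Cd163, the haemoglobin scavenger receptor, was 384 against 145 CPM. Lyve1, a hyaluronan receptor of perivascular macrophages, was 291 against 114 CPM. Timd4, which binds phosphatidylserine, was 62.9 against 25.1 CPM. Clec10a, a lectin, was 1055 against 539 CPM. Other resident genes, the chemokine Pf4 (1517 against 1495 CPM) and the scavenger receptor Stab1 (131 against 133 CPM), stood close to equal. In the lipid-associated list 9 of 17 were higher and 2 lower (median 0.66; control diet -0.11): Plin2, the lipid droplet coat, was 583 against 136 CPM and Cd36 1046 against 386 CPM. Apoe, a lipid carrier, was 7711 against 3401 CPM. Ctsd, a lysosomal protease, was 855 against 397 CPM. Trem2, the lipid receptor of these cells, was 47.4 against 29.6 CPM. Lower were Lgals1 (388 against 731 CPM) and the integrin Itgax (32.2 against 60.2 CPM). Cd36 had a higher level in the endothelial gate (6000 against 3361 CPM), and adipocyte markers summed to 542 against 39.1 CPM in the phagocyte gate. The part of endothelial and adipocyte RNA in the lipid-associated list was not tested.

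Complement genes had 8 higher and 2 lower of 16 (median 0.55) in phagocytes, with 1 higher and 1 lower of 16 on the control diet. The highest of them, Cfd, is an adipocyte product, and adipocyte markers were higher in this gate. The C1q chains, which start the classical pathway, stayed within 1.5-fold (C1qa 1779 against 1548 CPM, C1qb 1161 against 1162 CPM, C1qc 1556 against 1288 CPM), while factor B (Cfb) was 26.0 against 10.2 CPM and the receptor C5ar1 342 against 188 CPM. Of the monocyte list 6 of 16 were lower and 2 higher (median -0.34; control diet 1 lower and 1 higher of 16, median 0.06). Cx3cr1, the fractalkine receptor of patrolling monocytes, was 22.4 against 67.6 CPM. Ly6c2, of classical monocytes, was 29.6 against 82.5 CPM, whereas Chil3, a chitinase-like protein, was higher at 62.2 against 22.5 CPM and Ccr2, the receptor that recruits monocytes, was 261 against 321 CPM. MHC class II and dendritic cell genes had 0 higher and 2 lower of 13 (median -0.27; control diet 0 and 0 of 13, median -0.07).

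The makeup of the gate differed in the same direction. After thinning to 1000 UMIs, barcodes with a UMI of C1qa, C1qb or C1qc were 72.6% of phagocytes of the Cth-/- library (95% Clopper-Pearson interval 69.3 to 75.7) and 59.5% of the Cth+/+ library (56.4 to 62.6). Barcodes of the endothelial gate alone, which should lack them, had 2.85% and 2.62%. Before thinning they were 78.2% and 67.0%. Mrc1, the mannose receptor, was seen in 63.8% against 47.9% (background 1.98% and 1.10%), monocyte genes (Ly6c2, Ccr2 or Plac8) in 24.6% against 35.1% (background 2.60% and 3.72%) and MHC class II genes in 80.9% against 88.0% (background 15.7% and 15.8%) of thinned barcodes. On the control diet the Cth-/- and Cth+/+ libraries stood at 69.7% and 69.7% for C1q and 41.3% and 39.4% for monocyte genes. They stood at 62.5% and 56.7% for Mrc1 and at 86.7% and 84.9% for MHC class II genes. For C1q and Mrc1 the Cth+/+ cystine-free library had the lowest share of all libraries. For monocyte and MHC class II genes the Cth-/- cystine-free library had the lowest share. The sums over the gate therefore mix a different makeup with different levels per cell, which cannot be told apart in them. In C1q barcodes alone the resident macrophage list had 8 higher and 0 lower of 22, and the monocyte list 2 higher and 8 lower of 15.

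Lower in phagocytes were a chemokine, a nuclease and genes of cell division. Ccl12, which attracts monocytes, stood at 156, 167, 156 and 24.6 CPM (log2 ratio -2.71, interval -3.14 to -2.40). Dnase1l3, a secreted nuclease, stood at 33.5, 104, 17.1 and 27.5 CPM (log2 ratio -1.88). For Ccl12 the 3 other libraries lay between 156 and 167 CPM, while for Dnase1l3 the Cth+/+ cystine-free library stood above all others. Cell cycle genes had 0 higher and 12 lower of 16 (median -1.65): Top2a stood at 15.5 against 64.5 CPM and Stmn1 at 50.3 against 178 CPM. Pclaf, a PCNA partner, stood at 10.1 against 63.1 CPM and the histone gene Hist1h2ap at 40.9 against 207 CPM. On the control diet the list median was 0.26. Retnlg, a neutrophil gene, was 4.34 against 63.8 CPM, but 1 barcode held 89.6% of its UMIs in the Cth+/+ library, so it describes that barcode. Of cholesterol synthesis genes 0 of 11 measured genes were 1.5-fold higher or more and 6 lower (median log2 ratio -0.76; control diet 0 higher and 0 lower of 10, median -0.29): Idi1, an isoprenoid isomerase, was 6.15 against 28.4 CPM. Hmgcs1, which makes the mevalonate precursor, was 16.3 against 33.4 CPM.

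**Figure D4:**
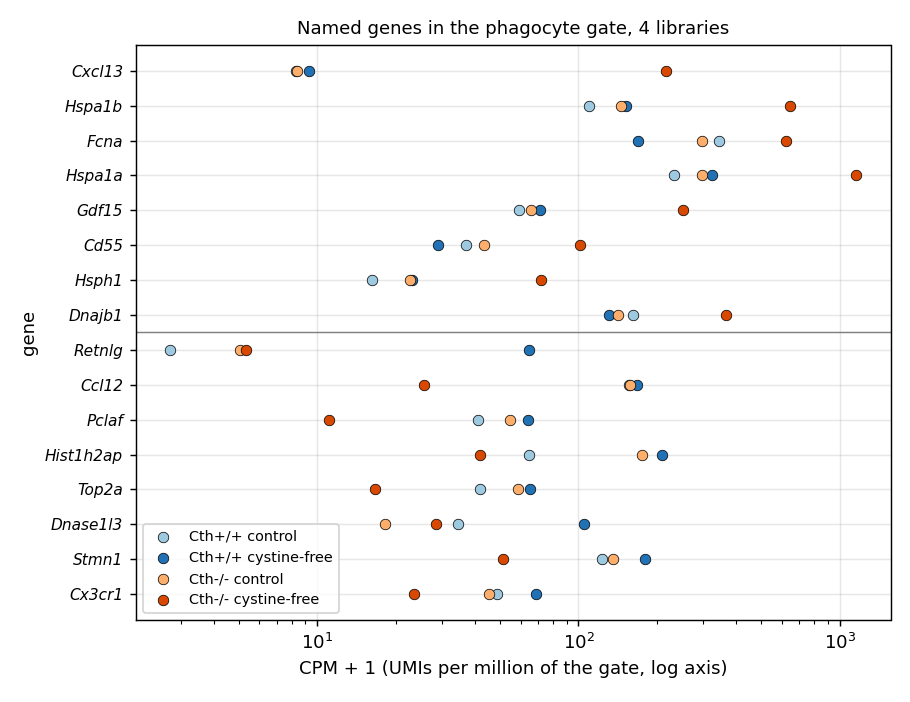
Level of the 16 genes named in the phagocyte gate (rows), as CPM + 1 on a log scale (x axis), in the 4 libraries (points, 1 library each). Cxcl13 stands at 215 CPM in the Cth-/- cystine-free library and below 10 CPM in the other 3, and Ccl12 at 24.6 CPM against 156 or more.

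In the T gate, genes of naive T cells were higher and genes of cytotoxic cells lower in the Cth-/- library, and on the control diet both lists stood the other way. Of the naive list, 7 of 13 measured genes were 1.5-fold higher or more and 0 lower (median log2 ratio 0.66; control diet 0 higher and 7 lower of 12, median -0.78). Lef1, a transcription factor of naive cells, stood at 129.8, 45.5, 19.9 and 105 CPM (log2 ratio 1.19, interval 0.58 to 1.87). Ccr7, which guides cells to lymph nodes, stood at 114, 109, 76.5 and 239 CPM (log2 ratio 1.12, interval 0.72 to 1.55). Dapl1, a gene of quiescent T cells, stood at 155, 44.0, 36.6 and 124 CPM (log2 ratio 1.47, interval 0.87 to 2.15). For Lef1 and Dapl1 the Cth+/+ control library stood above the Cth-/- cystine-free library and the other two were low, while for Ccr7 the Cth-/- cystine-free library was the highest. Bach2, a repressor of effector fate, was 46.9 against 12.1 CPM. Tcf7, a partner of Lef1, was 155 against 94.0 CPM.

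Of the cytotoxic list, 0 of 13 measured genes were 1.5-fold higher or more and 7 lower (median log2 ratio -0.68; control diet 8 higher and 2 lower of 12, median 1.24). Ifng, interferon gamma, was 19.9 against 63.7 CPM. Ccl5, an effector chemokine, was 2291 against 5583 CPM. Fasl, the death ligand, was 32.7 against 86.4 CPM. Gzma, granzyme A, was 263 against 421 CPM. Cd8a (108 against 95.5 CPM) and Gzmb, granzyme B (129 against 180.4 CPM), stayed within 1.5-fold. Of 5 gamma-delta and type 17 genes 3 were lower, whereas 4 of 5 were higher on the control diet: Tcrg-C1 (42.7 against 109 CPM) and Tcrg-C2 (19.9 against 66.7 CPM), gamma chain constant regions that counting may split between near copies, and Cd163l1, a scavenger receptor of gamma-delta cells (24.2 against 63.7 CPM). The receptors of NK and killer T cells Klra9 (7.111 against 50.03 CPM) and Klre1 (12.8 against 68.2 CPM) were lower too, beside NK markers summed to 744 against 1249 CPM in this gate, 4 of 4 detected. The part of NK cells in these values was not tested. T cell receptor signalling genes had 2 higher and 0 lower of 19 (median 0.01): Cd3e, which sets the gate with Cd3d and Cd3g, was 306 against 373 CPM. Lck, the first kinase of the receptor, was 185 against 169.8 CPM. Cd6, an adhesion receptor, was 81.1 against 44.0 CPM.

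Other lists of effector genes did not follow the cytotoxic list. T cell activation and memory genes had 6 higher and 2 lower of 19 (median 0.12; control diet 9 higher and 0 lower of 13, median 0.78). Cd44, a hyaluronan receptor of activated cells, was 283 against 164 CPM, and Tnfrsf4, the costimulator OX40, 88.2 against 48.5 CPM. Cxcr6, a chemokine receptor of tissue T cells, was lower at 121 against 235 CPM. Cytokines and chemokines had 8 higher and 2 lower of 14 (median 0.70; control diet 5 higher and 2 lower of 12, median 0.47). Among them Ccl2, which attracts monocytes, was 491 against 214 CPM, and the chemokine Ccl9 154 against 45.5 CPM. Phagocyte markers, all 8 detected in both, summed to 1158 against 1337 CPM in this gate. Other phagocyte genes went the other way, with Lyz2 at 548 against 240 CPM and Retnla at 1977 against 531 CPM. The part of phagocyte RNA in the chemokine levels was not tested.

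By barcodes, a UMI of Ccr7 or Lef1 was seen in 101 of 236 barcodes of the Cth-/- library (42.8%) and 49 of 192 of the Cth+/+ library (25.5%), and after thinning 23.4% (18.1 to 29.4) and 13.1% (8.65 to 18.7). On the control diet the thinned shares were 9.09% in the Cth-/- and 19.6% in the Cth+/+ library, so the highest value and the lowest were both in Cth-/- libraries. A UMI of Gzma, Gzmb or Nkg7 was seen, after thinning, in 31.6% (25.7 to 38.0) and 45.5% (38.3 to 52.9). On the control diet these shares were 47.3% in the Cth-/- and 33.5% in the Cth+/+ library. Barcodes of the endothelial gate alone had at most 0.275% for the first set and 0.619% for the second after thinning.

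Cell cycle genes in the T gate had 0 higher and 9 lower of 12 (median -0.94), against a control-diet median of 0.78, with Mki67 at 21.33 against 50.03 CPM and Stmn1 at 121 against 268 CPM. Summed, the list stood at 2025, 4496, 3228 and 2753 CPM, highest in the Cth+/+ cystine-free library. Of single genes, Mrps6, a mitochondrial ribosomal protein, was 68.3 against 16.7 CPM. Rictor, a subunit of the mTOR complex 2, was 52.6 against 16.7 CPM. Dhx15, an RNA helicase, was 102 against 37.9 CPM. They rest on 48, 37 and 72 UMIs in the Cth-/- library. Il5, a type 2 cytokine, was 104 against 39.4 CPM, in 14 and 7 barcodes, and its log2 ratio went from 1.37 to -1.11 with the gate minimum doubled. Several names came from single barcodes: 1 barcode held 74.0% of the Fn1 UMIs and 56.3% of the Ccl7 UMIs of the Cth-/- library, and 1 barcode of the Cth+/+ library 87.5% of Mfap4, which had 0 UMIs in the Cth-/- library (at least 14.2-fold lower at 3 UMIs, in that sum). Mgp, Gas1, Inmt and Abi3bp, genes of fibroblasts, were lower beside the lower progenitor markers of the gate.

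**Figure D5:**
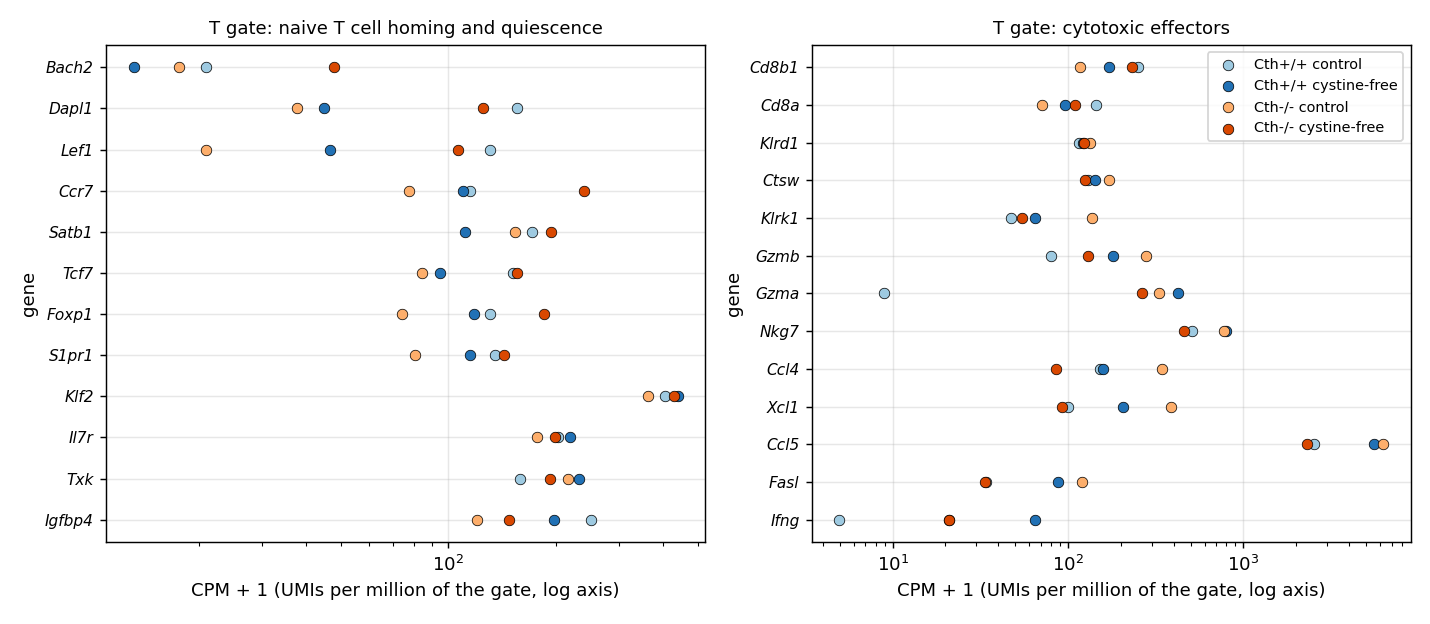
Level of 12 genes of the naive and 13 of the cytotoxic list in the T gate (rows, a panel per list), as CPM + 1 on a log scale (x axis), in the 4 libraries (points, 1 library each). Without cystine Lef1 stands at 105 CPM in Cth-/- and 45.5 CPM in Cth+/+ mice, and Ifng at 19.9 and 63.7 CPM.

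Epithelial cells of the Cth-/- library had higher genes of hormone-sensing luminal cells and lower genes of secretory luminal and basal cells. Ly6d, a surface protein of luminal cells, stood at 3053, 1872, 2419.6 and 6489.8 CPM (log2 ratio 1.79, interval 1.74 to 1.85), the Cth-/- cystine-free library above the other libraries. Ido1, the enzyme that breaks down tryptophan, stood at 544, 108, 297 and 497 CPM (log2 ratio 2.19, interval 1.97 to 2.44), and here the Cth+/+ cystine-free library was the one that stood low. Slc5a6, the vitamin transporter for biotin and pantothenate, stood at 77.8, 22.3, 86.1 and 111 CPM (log2 ratio 2.26, interval 1.80 to 2.86), again low in the Cth+/+ cystine-free library. Edn1, the endothelin precursor, was 89.3 against 23.0 CPM. Pllp, a membrane protein, was 50.8 against 10.3 CPM. Ctsj and Ctsr, cathepsins of a placental family, stood at 38.7, 3.62, 1.87 and 163 CPM and at 66.6, 3.62, 52.4 and 94.3 CPM. For Ctsr the Cth+/+ cystine-free library alone was low. In the Cth-/- library 1 barcode held 82.9% of the Ctsj UMIs.

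Of the hormone-sensing list, 9 of 17 measured genes were 1.5-fold higher or more and 5 lower (median log2 ratio 0.79; control diet 1 higher and 2 lower of 16, median -0.12). Prlr was 2027 against 1120.5 CPM. Esr1, the oestrogen receptor, was 63.6 against 35.6 CPM. Wnt4, a signal sent on progesterone, was 338 against 143 CPM, while Pgr, the progesterone receptor, was lower at 26.8 against 75.5 CPM. Sostdc1, a Wnt antagonist, was lower at 2.79 against 30.8 CPM. Krt8 and Krt18, which set the gate, are among the higher ones. Of the secretory list, 0 of 13 measured genes were 1.5-fold higher or more and 11 lower (median log2 ratio -0.89; control diet 0 higher and 1 lower of 13, median -0.19), with the milk proteins Csn3 (54.7 against 387 CPM) and Wfdc18 (1028 against 3009 CPM), Elf5, the factor of secretory fate (20.1 against 38.1 CPM), and Kit, a receptor kinase (44.6 against 80.3 CPM). Aoc1, a diamine oxidase, stood at 336, 76.7, 391 and 9.49 CPM, and Lmo1 at 5.44, 58.6, 12.0 and 6.70 CPM. Aoc1 was low in both cystine-free libraries beside the control diet, and Lmo1 was high in the Cth+/+ cystine-free library alone. Junction and keratin genes had 7 higher and 2 lower of 19 (median 0.51; control diet 1 higher and 0 lower of 18, median 0.01), and Krt8 and Krt18, which set the gate, are 2 of the 7.

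Basal and contractile genes were lower. The basal list had 0 higher and 11 lower of 15 (median -1.49; control diet 3 higher and 0 lower of 11, median 0.36) and the smooth muscle list 0 higher and 13 lower of 14 (median -1.71; control diet 5 higher and 0 lower of 12, median 0.57). Krt5, a basal keratin, stood at 18.3, 215, 16.8 and 20.6 CPM. Tagln, an actin-binding protein, stood at 43.8, 463, 108 and 63.6 CPM. Myh11, smooth muscle myosin, stood at 14.9, 96.0, 32.2 and 12.3 CPM. In all 3 the Cth+/+ cystine-free library stood above the 3 other libraries. Barcodes with a Krt5 or Krt14 UMI were 6.56% (2.87 to 12.5) and 21.3% (14.8 to 29.2) of thinned epithelial barcodes (unthinned 14.8% and 29.0%), with 2.05% and 3.12% in the Cth-/- and Cth+/+ control-diet libraries and at most 0.689% in endothelial barcodes. In epithelial barcodes with fewer than 3 such UMIs the basal list had 3 higher and 1 lower of 6 and the smooth muscle list 0 higher and 1 lower of 4, and Krt5 and Pcp4, the latter from 93.9% in 1 barcode of the Cth+/+ library, had log2 ratios of 0.30 and 0.66. In those barcodes few members of either list were measured at all.

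Luminal makeup differed as well. A UMI of Prlr, Esr1 or Pgr was seen in 68.9% of thinned epithelial barcodes of the Cth-/- library (59.8 to 76.9) and 36.8% of the Cth+/+ library (28.7 to 45.5), with 63.6% and 67.7% on the control diet. A UMI of Wfdc18, Csn3 or Ltf was seen in 28.7% (20.9 to 37.6) and 41.2% (32.8 to 49.9), with 35.4% and 38.5% on the control diet. Endothelial barcodes had at most 1.49% and 1.81% for these sets. For the hormone receptors the Cth+/+ cystine-free library was the one that stood apart, and the gate held 122 and 138 barcodes, which limits these shares.

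Among redox genes of epithelial cells, the glutathione and thioredoxin list had 7 higher and 4 lower of 24 (median 0.26; control diet 0 and 0 of 24, median 0.01). Its median was 0.06 without mitochondrial and ribosomal protein genes in the total. Gclc, which makes the glutathione precursor from cysteine, was 146 against 79.7 CPM. Gss, which completes glutathione, was 33.5 against 18.7 CPM. Gsr, which recycles it, was 121 against 47.7 CPM. Mgst3, a membrane glutathione transferase, was 214 against 68.9 CPM. Mgst1 was 199 against 315 CPM. Prdx4, a peroxidase of the endoplasmic reticulum, was 35.7 against 65.8 CPM. Respiratory chain genes had 0 higher and 0 lower of 28 (median 0.36), none 1.5-fold apart, and a median of 0.16 without mitochondrial and ribosomal protein genes in the total. Slc7a5, an importer of large amino acids, was 6.70 against 21.1 CPM and its partner Slc3a2 119 against 189 CPM.

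Atf4 targets, the list closest to the missing amino acid, had 5 higher and 0 lower of 18 (median 0.36) in phagocytes, where 9.27% of all measured genes were higher. They had 6 higher and 2 lower of 18 (median 0.25) in endothelial cells, 3 higher and 0 lower of 11 (median 0.36) in T cells and 2 higher and 2 lower of 20 (median -0.03) in epithelial cells. Of all measured genes in these gates, 11.5%, 10.3% and 13.1% were higher and 11.5%, 10.3% and 9.85% lower. On the control diet Atf4 targets had 0 higher of 17 in phagocytes (median 0.07), 2 of 18 in endothelial cells (median 0.15), 2 of 9 in T cells (median 0.44) and 0 of 18 in epithelial cells (median -0.03), with 0 lower in these 4 gates. Gdf15 was 39.3 against 13.3 CPM in endothelial cells and Atf4 itself 571 against 301 CPM. In phagocytes Nupr1, a stress factor, was 187 against 85.8 CPM. Ddit3, a factor of prolonged stress, was 117 against 65.9 CPM. Slc7a11, the cystine importer and a known Atf4 and Nrf2 target, was measured in phagocytes, where it was 14.5 against 21.3 CPM (log2 ratio -0.53, -1.14 to -0.01).

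The lists that follow are to be read against the same shares over all measured genes. Nrf2 targets had 5 higher and 0 lower of 17 (median 0.06) in endothelial cells and 6 higher and 0 lower of 20 (median 0.25) in phagocytes. In T cells they had 0 higher and 0 lower of 9 (median 0.02). In epithelial cells they had 5 higher and 0 lower of 20 (median 0.14, or -0.07 without mitochondrial and ribosomal protein genes in the total). On the control diet Nrf2 targets had 2 higher of 17 in endothelial cells (median 0.08), 0 of 17 in phagocytes (median -0.02), 0 of 8 in T cells (median -0.17) and 2 of 20 in epithelial cells (median 0.07). In phagocytes Me1, malic enzyme, which makes NADPH and is also an adipocyte gene, was 31.1 against 5.69 CPM. Hmox1, haem oxygenase, was 1727 against 797 CPM and Gclc 66.5 against 34.8 CPM. Srxn1, sulfiredoxin, was 61.8 against 35.6 CPM. In endothelial cells Hmox1 was 109 against 58.6 CPM and Gclc 43.3 against 27.7 CPM. Txnrd1, thioredoxin reductase, was 110.4 against 68.3 CPM. Enzymes of transsulfuration and sulfur amino acids had 2 higher and 1 lower of 8 (median 0.20) in endothelial cells and 1 higher and 0 lower of 7 (median -0.04) in phagocytes. In T cells they had 0 higher and 0 lower of 3 (median -0.19). In epithelial cells they had 1 higher and 1 lower of 11 (median 0.39, or 0.18 without mitochondrial and ribosomal protein genes in the total). On the control diet they had 1 higher and 0 lower of 8 (median 0.23) in endothelial cells. The control-diet counts were 0 and 0 of 10 (median -0.03) in phagocytes and 1 and 0 of 3 (median 0.19) in T cells. Mat2a, which makes S-adenosylmethionine, was 70.3 against 119.6 CPM in epithelial cells. Amino acid transporters had 3 higher and 0 lower of 6 (median 0.55) in endothelial cells and 4 higher and 0 lower of 10 (median 0.52) in phagocytes. On the control diet they had 1 and 0 of 6 (median 0.25) and 0 and 0 of 9 (median 0.01).

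The Rgs5 and Notch3 gate held 120 barcodes of the Cth-/- and 528 of the Cth+/+ library, most of them shared with the endothelial gate. Among its named higher genes were genes of epithelial cells. Epithelial markers there summed to 3846 against 426 CPM, with 8 of 8 detected in both, and 7 and 6 of its barcodes also passed the epithelial gate. On the control diet these markers summed to 4828 CPM in Cth-/- and 2346 CPM in Cth+/+ mice, so the Cth+/+ cystine-free library alone was low. Crym (65.1 against 0.579 CPM), Wnt4 (144 against 9.85 CPM) and Cxcl15 (130.3 against 7.53 CPM) lay in 6, 9 and 8 barcodes of the Cth-/- library, and 1 barcode held 85.7% of the Crym UMIs. S100a14, Ido1, Tfap2b, Capsl and Fgfr2 completed the higher names, in 6 or 7 barcodes each. All of the higher names had their lowest level in the Cth+/+ cystine-free library, and Cxcl15 stood at 133, 7.53, 240 and 130 CPM. With the gate minimum doubled, S100a14, Ido1, Cxcl15 and Fgfr2 had log2 ratios below 0.

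Stress lists were higher in this gate too, where 11.9% of measured genes were. The sulfur list was higher here as well, with a median above those of the other gates. Immediate early genes had 16 higher and 0 lower of 24 (median 0.61; control diet 5 and 0 of 24, median 0.08), and heat shock chaperones 9 higher and 1 lower of 17 (median 0.64; control diet 1 and 0 of 16, median 0.18). Enzymes of transsulfuration and sulfur amino acids had 4 higher and 0 lower of 7 (median 1.14; control diet 4 and 0 of 11, median 0.30). Mat2a was 562 against 255 CPM. Cdo1, which oxidises cysteine, was 97.0 against 22.3 CPM. Csad, the next enzyme on the way to taurine, was 78.4 against 27.8 CPM, and the sulfurtransferase Tst 41.2 against 8.11 CPM. Adipocyte genes had 14 higher and 1 lower of 20 (median 1.25) here, and without the adipocyte-marked barcodes the sulfur list had 2 higher and 0 lower of 3. Atf4 targets had 7 higher and 3 lower of 19 (median 0.38; control diet 2 and 1 of 18, median -0.08). Nrf2 targets had 6 higher and 1 lower of 16 (median 0.35; control diet 4 and 1 of 18, median 0.23), but 0 and 0 of 10 (median -0.12) without the adipocyte-marked barcodes.

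Lower in this gate were genes of dividing and sprouting cells. Top2a and Apln had 0 UMIs in the Cth-/- library, against 206 and 196 in the Cth+/+ library, at least 15.0-fold and 14.2-fold lower when 3 UMIs stand for 0 in that sum. Top2a stood at 8.14, 59.7, 14.2 and 0 CPM, so the Cth+/+ cystine-free library was above both control-diet libraries. In barcodes that passed this gate alone Apln had 0 UMIs in both libraries and Top2a 0 against 1, so neither difference was seen there. Hist1h2ap was 7.98 against 253 CPM, Col15a1 29.2 against 195 CPM and Aplnr 27.9 against 147 CPM. Il2rg, the common cytokine receptor chain, was 10.6 against 52.4 CPM. Fam111a, a protease of DNA replication, was 12.0 against 52.1 CPM, and Fam198b 34.6 against 147 CPM (log2 ratio -2.06, but 0.60 in barcodes of this gate alone). Cell cycle genes had 0 higher and 17 lower of 19 (median -1.69), pericyte genes 1 higher and 10 lower of 17 (median -0.88) and basement membrane genes 0 higher and 12 lower of 16 (median -0.93).

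The barcodes that passed only this gate numbered 9 of 4130 kept in the Cth-/- library (0.218%, 0.0997 to 0.413) and 70 of 6383 in the Cth+/+ library (1.10%, 0.856 to 1.38), with 0.447% and 1.21% on the control diet. Of pericyte genes that the gate did not use, they had the channel subunit Abcc9 at 639 against 810.1 CPM and the receptor Pdgfrb at 479 against 1027 CPM. Rgs5, which with Notch3 sets the gate, was 2184 against 5859 CPM. Ndufa4l2 had 5 UMIs against 228, Cox4i2 7 against 129 and Col4a1 11 against 243. With 9 barcodes in 1 library, no level of this population could be compared between the genotypes.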

How the data were processed

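Single-cell RNA libraries (10x Chromium 3' kit, HiSeq3000, per the labels' protocols) of stromal vascular cells were analysed for 4 groups of 1 library each, grouped by their genotype and diet labels. The deposited counts are whole-number UMI counts per gene and barcode, not normalised by the authors; Cell Ranger 3.0.0 made them, per the file headers, and the build was mm10, per the submitters' processing notes. Other settings of that step are not given in the sources used here.

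Barcodes with 500 UMIs, 300 genes and at most 10% mitochondrial UMIs were kept; symbols that occur more than once were left out. Barcodes that passed several gates counted in each. No doublet caller was run, and barcodes passing exactly 1 gate served as an alternative. UMIs were summed per gate and library, scaled to CPM and compared as log2 of the ratio with a pseudocount of 1 CPM. The intervals of log2 ratios are exact conditional binomial intervals of the counts, without the pseudocount. Shares have Clopper-Pearson intervals, and differences of shares combine their widths in quadrature. All are 95% intervals of counting error only. With 1 library per group, no test was made.

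Up to 8 genes higher and 8 lower were named per gate, those furthest apart that were 2-fold apart or more, reached both 50 CPM and 30 UMIs in 1 library, and were at 1 part in 5 or more of the level in the highest gate. Genes outside this rule came from 43 lists or from the genes shared by all gates. The members, the gates and the lists were chosen with earlier results of these data known. The effect of other cell filters, gates, scalings and pseudocounts is given in the closing section; list values in part of a gate, values without adipocyte-marked barcodes, shares of single barcodes, background shares and the short motifs were added after the data were seen. A few named genes and list members are not reported here. Scripts ran in python 3.11.15 with numpy 2.4.6, pandas 2.3.3, scipy 1.17.1 and matplotlib 3.10.9, and were tested on simulated data.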

Additional observations from a re-analysis of the deposited data

Results flagged for a closer look

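Of 80 named genes, counted once per gate, 30 had a log2 ratio of Cth-/- over Cth+/+ on the control diet that pointed the other way from that without cystine. The 10 given here were also at least 1.5-fold apart on the control diet and reached 20 CPM and 30 UMIs in the higher of its libraries; the other 20 missed at least 1 of these sizes. With 1 library per group the difference between the diets was not tested. In the endothelial gate Mgp had a ratio of 1.24 on the control diet and -2.13 without cystine. The histone gene Hist1h2ap had 1.43 and -2.31 in the phagocyte gate, and 1.16 and -4.82 in the Rgs5 and Notch3 (mural) gate. In the T gate Dapl1 had -2.05 and 1.47, and Gas1 1.27 and -2.92. In the epithelial gate Ctsj had -3.79 and 5.15 and Ido1 -0.87 and 2.19. The basal and contractile genes of that gate went the other way, with Myh11 at 1.06 and -2.87, Pcp4 at 1.15 and -2.85 and Tagln at 1.28 and -2.84.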

How the results depend on the processing

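No replicate could be left out, since each group is 1 library. No paired analysis was possible because each group holds 1 sample. Of the 80 names in the gates (70 genes), 57 stayed at least 1.5-fold apart under every alternative tried and 23 did not. The 57 include names with next to no UMIs in an alternative, where the ratio says little. An example is Top2a (mural) in barcodes of 1 gate alone, described above. Of 800 values 14 changed sign, and the cause was not tested. In barcodes of 1 gate alone Ndufa4l2 (endothelial) gave 0.70, Fn1 and Inmt (T) -0.72 and 0.10 and Fam198b (mural) 0.60. In the main sub-gates Fn1, Gas1 and Inmt (T) gave -0.086, 2.38 and 0.47, and Krt5 and Pcp4 (epithelial, without basal barcodes) 0.30 and 0.66. With gate minimums doubled Il5 (T) gave -1.11, S100a14, Ido1 and Cxcl15 (mural) -0.49 each and Fgfr2 -1.38.

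The number of genes at least 1.5-fold apart was 1452, 855, 583, 1610 and 1335 in the endothelial, phagocyte, T, mural and epithelial gates. Without a filter on low values it was 4249, 3663, 7057, 6931 and 6383. A pseudocount of 10 CPM gave 540 in the phagocyte and 883 in the epithelial gate, the T sub-gate 193, a filter on the mean of both libraries 377 in the T gate, and mural barcodes of that gate alone 268. Fewer genes were measured in the latter sub-gates, 889 (T) and 492 (mural). The share of higher genes among those apart also moved, in the epithelial gate from 57.2% to 70.1% with at most 5% mitochondrial UMIs and to 44.9% without the filter, in the T gate from 50.1% to 39.0% with the minimum doubled, and in the mural gate from 39.3% to 7.09% in its own barcodes alone, 21.3% with the minimum doubled and 52.0% with the mean filter.

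The endothelial difference in share was 9.46 points in barcodes of 1 gate alone and 2.41 with the minimum doubled, the phagocyte one 4.25 with at most 5% mitochondrial UMIs and the T one 1.39 with the minimum doubled. The mural one was -0.88 in its own barcodes alone, -4.19 with at most 5% mitochondrial UMIs, -4.20 with the minimum doubled and -2.46 after thinning. Depth limits genes of low level: a gene with 0 UMIs may have up to 3, and the T, mural and epithelial gates of the Cth-/- library hold 236, 120 and 122 barcodes.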
